A study of Homo sapiens with 2 samples.

Results

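SR proteins and heterogeneous nuclear ribonucleoproteins (hnRNPs) are the 2 large families of RNA-binding proteins that steer splice site choice. Their genes were followed here in HCT-116, a widely used cell line from a human colorectal carcinoma, with and without lysophosphatidic acid (LPA), a phospholipid that signals through G protein-coupled receptors. The genes were chosen by symbol: SRSF followed by a number, HNRNP followed by a letter and without a hyphen or a pseudogene ending, and TRA2A, TRA2B and PTBP1. That gave 39 of the 26260 gene symbols in the deposited isoform table, 14 of them SR genes (TRA2A and TRA2B included) and 25 hnRNP genes (PTBP1 included). The study's poly-A RNA data used here are 1 library of serum-starved HCT-116 cells given 10 µM LPA for 24 h and 1 library of HCT-116 cells without LPA, the control. The labels do not say if serum was also withdrawn from the control. Both sample titles carry the number 3, and with 1 library per condition in 1 cell line no difference below has a replicate check or a p-value.

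SR proteins bind exonic enhancers through RNA recognition motifs and recruit the spliceosome through a domain rich in arginine and serine, which SRPK and CLK kinases phosphorylate. Many hnRNPs bind exonic or intronic silencers and oppose them, so that the balance between the families influences which exons are kept. Some members of both families limit their own level by splicing in a segment that carries a premature stop codon and directs the transcript to nonsense-mediated decay.

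The segments that separate the isoforms are shown first, because the isoform shares rest on them. Each was derived from GENCODE v29 transcripts on GRCh38 (the build named hg38 in the submitters' processing notes), and its length equals the difference in length between the 2 deposited isoforms. The SRSF3 and SRSF6 segments belong to isoforms that RefSeq lists as noncoding and GENCODE types as targets of nonsense-mediated decay. They are printed from the segment's first base to the annotated stop codon, which is in capitals.
SRSF3 (chr6:36599821-36599854, + strand): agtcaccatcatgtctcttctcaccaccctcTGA
SRSF6 (chr20:43459153-43459304, + strand): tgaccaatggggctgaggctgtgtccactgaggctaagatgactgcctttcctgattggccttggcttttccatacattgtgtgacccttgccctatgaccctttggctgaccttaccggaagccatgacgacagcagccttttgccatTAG

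The whole SRSF3 segment is 456 bases long (chr6:36599821-36600276) and the whole SRSF6 segment 268 bases (chr20:43459153-43459420). The second set holds in-frame segments of hnRNP genes whose isoforms encode different proteins. They are shown because their shares measure exon choice within the hnRNPs themselves. In PTBP1 the capitals mark the 57 bases that the intermediate isoform NM_031990 keeps.
HNRNPD exon 2 (chr4:82371528-82371584, - strand): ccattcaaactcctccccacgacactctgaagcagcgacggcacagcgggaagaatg
HNRNPD exon 7 (chr4:82356537-82356683, - strand): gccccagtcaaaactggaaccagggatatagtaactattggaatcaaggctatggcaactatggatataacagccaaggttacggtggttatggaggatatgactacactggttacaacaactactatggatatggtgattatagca
HNRNPAB (chr5:178210132-178210272, + strand): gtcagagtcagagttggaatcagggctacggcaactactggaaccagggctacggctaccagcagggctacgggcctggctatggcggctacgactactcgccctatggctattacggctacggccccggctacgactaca
HNRNPA2B1 (chr7:26197831-26197866, - strand): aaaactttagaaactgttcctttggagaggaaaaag
PTBP1 (chr19:805492-805569, + strand): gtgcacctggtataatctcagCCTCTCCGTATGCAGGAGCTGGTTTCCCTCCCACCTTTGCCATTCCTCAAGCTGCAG

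Values are FPKM, fragments scaled by transcript length and library size, as the authors deposited them for each isoform. A gene's level is the sum over its isoforms. Ratios are given as log2 of LPA over control after adding 1 FPKM to each value, so the ratios of genes with low values are understated. The whole table summed to 709125 FPKM in the LPA library and 718801 in the control, and the worth of 1 fragment put the depth near 15800000 fragments for LPA and 17000000 for the control. Of the colon epithelial markers fixed for this cell line, 6 of 7 reached a mean of 1 FPKM, with VIL1, the villin gene, at 0 in both libraries. KRT20 was just above that limit, at 1.16 FPKM with LPA and 1.22 FPKM in the control. The summed level of the 7 markers was 2495 FPKM with LPA and 1892 FPKM in the control, and its part in the differences given here was not tested. The keratin genes KRT8 (1507 FPKM with LPA, 1208 FPKM in the control) and KRT18 (741 FPKM with LPA, 442 FPKM in the control) carried nearly all of that difference, and EPCAM had 223 FPKM with LPA and 220 FPKM in the control. Fibroblast markers summed to 4.32 FPKM with LPA and 5.78 FPKM in the control (COL1A1 alone of 6 reached 1 FPKM, and COL1A2, DCN and LUM were at 0). Immune markers summed to 3.05 FPKM with LPA and 2.95 FPKM in the control (CD68 alone of 5, with PTPRC at 0), and none of 4 endothelial markers reached 1 FPKM.

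Of the 39 genes, 35 had a mean of at least 1 FPKM over both libraries, 13 SR genes and 22 hnRNP genes. The other 4, SRSF12 and the HNRNPC-like genes HNRNPCL1, HNRNPCL2 and HNRNPCL3, were listed at 0 in both. The 35 genes summed to 4788 FPKM with LPA and 4754 FPKM in the control, which is 0.675% of all FPKM with LPA and 0.661% in the control. These sums hold HNRNPC, whose LPA value is uncertain, as given below. In bulk RNA, a difference in few cells and a smaller one in all cells cannot be told apart. By mean FPKM, 18 of the 35 stood among the upper 10% of the 11688 genes with a mean of at least 1 FPKM. They ranged from HNRNPA1, at rank 101, to HNRNPA1L2, at rank 8186.

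With 1 FPKM added to each value, none of the 35 SR and hnRNP genes was 1.5-fold higher or lower with LPA. HNRNPLL, at 10.9 FPKM with LPA and 16.4 FPKM in the control, passed when 0.1 was added instead, as given below. Over all 11688 genes, with 1 added, 1.45% were at least 1.5-fold higher, 1.54% at least 1.5-fold lower and 2.99% either. Among the 5527 genes with a mean of at least 10 FPKM, nearer the levels of these families, the share was 2.71%. At 2-fold the shares over all genes were 0.351% higher, 0.205% lower and 0.556% either, and again no SR or hnRNP gene passed. At these shares few of 35 genes would pass, so the absence of such genes does not set the families apart. The log2 ratio lay within 0.2 of 0 for 23 of the 35 genes (65.7%), near the 59.7% of all genes and the 59.5% of those with a mean of at least 10 FPKM. It was above 0 in 19 and below in 16, where 50.2% of all genes were above 0. Their median log2 ratio was 0.02, against 0.0009 over all genes. The robust SD of the log2 ratio, taken from the median absolute deviation, was 0.20 over the 35 genes and 0.24 over all genes with a mean of at least 10 FPKM. Estimated fragments per gene ran from 152 to 34061, and the standard error of the log2 ratio from counting alone was 0.01 to 0.16. The 95% counting interval excluded 0 for 25 of the 35 genes (71.4%), as it did for 41.6% of all genes with an estimate above 0 in both libraries and for 61.9% of those with a mean of at least 10 FPKM. This error holds no spread between cultures and no error in assigning fragments to isoforms or genes. The 25 genes include HNRNPC, with an uncertain LPA value, and HNRNPH2, with an uncertain split from its locus, as given below.

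**Figure D1:**
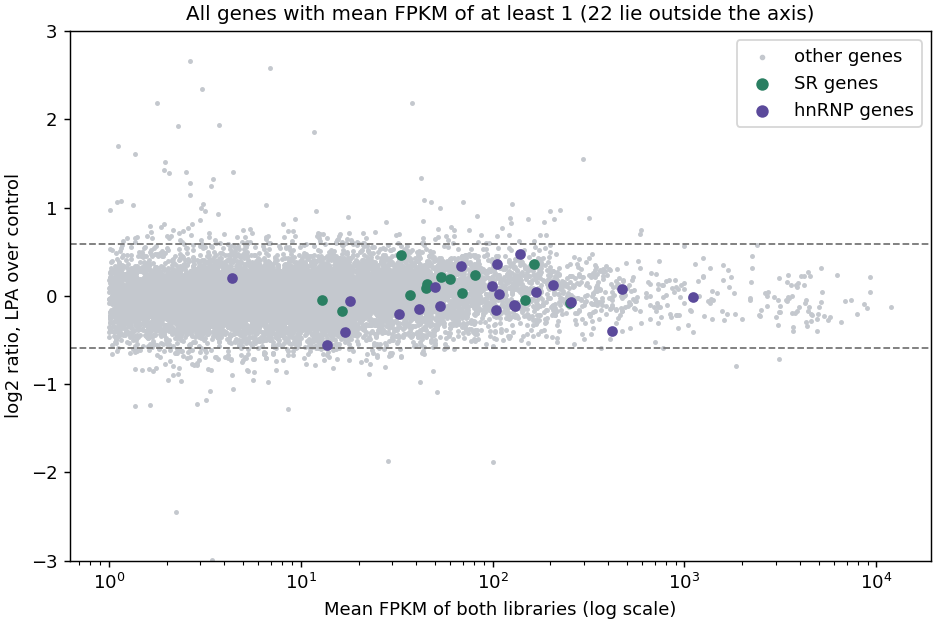
Log2 ratio of LPA over control (vertical axis) against mean FPKM of both libraries (horizontal axis, log scale) for all 11688 genes with a mean of at least 1 FPKM, with SR genes in green and hnRNP genes in purple. Dashed lines mark 1.5-fold after 1 FPKM was added to each value. All 35 SR and hnRNP genes lie between the lines, and 22 other genes lie outside the vertical axis.

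The 13 SR genes that passed the filter summed to 1054 FPKM with LPA and 984 FPKM in the control. Of these, 9 had a log2 ratio above 0 and 4 below, with a median of 0.09. SR genes made up 22.0% of the summed SR and hnRNP FPKM in the LPA library and 20.7% in the control. The hnRNP part of this sum includes HNRNPC, whose LPA value is uncertain, so the 22.0% is uncertain as well. In FPKM, SRSF2, SRSF5 and SRSF4 had the widest differences on the higher side.

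SRSF4, which encodes the longest of the classical SR proteins with an extended arginine and serine domain, had 38.8 FPKM with LPA and 27.8 FPKM in the control, a log2 ratio of 0.47. It lies at chr1:29147738-29182125 and has 1 isoform in the table, whose deposited bounds, from the authors' software and of unstated level, were 28.2 to 49.4 with LPA and 20.1 to 35.4 in the control. The bounds overlap. SRSF2 (SC35, a bridge between splice sites, chr17:76734115-76779254) had 185 FPKM with LPA and 144 FPKM in the control, a log2 ratio of 0.36. Of this, the leading isoform NM_001195427 held 141 FPKM with LPA and 102 FPKM in the control, while NM_003016 held 27.0 FPKM with LPA and 26.0 FPKM in the control. The library kit does not mark strand, and the SRSF2 locus is overlapped by that of MFSD11, which had 10.8 FPKM with LPA and 13.1 FPKM in the control.

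SRSF5, known as SRp40, stood at 87.4 FPKM with LPA and 74.1 FPKM in the control (log2 ratio 0.23). SRSF1, the founding SR protein and a splicing factor with known oncogenic activity, had 57.8 FPKM with LPA and 49.6 FPKM in the control (log2 ratio 0.22). SRSF6 (SRp55) followed with 64.3 FPKM in the LPA library and 56.0 FPKM in the control (log2 ratio 0.19). In SRSF1 the coding isoform NM_006924 was the one that differed, with 44.5 FPKM with LPA against 35.3 FPKM in the control, and the other 3 isoforms were slightly lower with LPA. SRSF11, a protein of the SR family that binds U2AF, had 47.8 FPKM with LPA and 43.3 FPKM in the control.

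The other SR genes had log2 ratios within 0.2 of 0. TRA2A and TRA2B, homologues of the Drosophila sex-determination factor Transformer-2, had 46.2 and 37.2 FPKM with LPA and 43.4 and 36.9 FPKM in the control. SRSF7, an SR protein that also aids mRNA export, had 70.2 FPKM with LPA and 68.9 FPKM in the control. SRSF3, the smallest SR protein, had 145 FPKM with LPA and 150 FPKM in the control. SRSF9 was the most abundant SR gene by FPKM, which corrects for length, and its 1 isoform had 246 FPKM with LPA and 260 FPKM in the control. SRSF8, a retrogene copy of SRSF2, had 12.6 FPKM with LPA and 13.1 FPKM in the control. The lowest SR ratio was that of SRSF10, a regulator that becomes a general splicing repressor when dephosphorylated, with 15.4 FPKM with LPA and 17.5 FPKM in the control (log2 ratio -0.17).

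**Figure D2:**
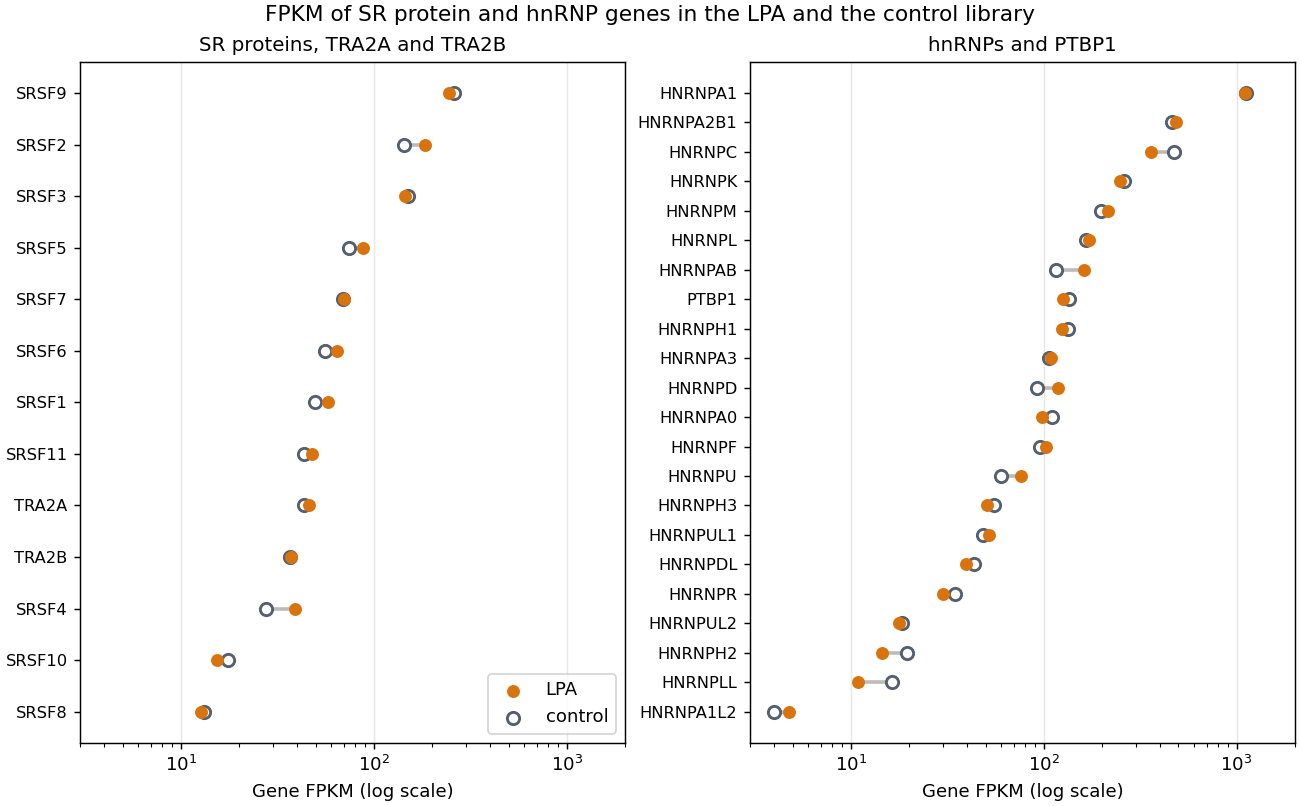
Gene FPKM (log scale) of the 13 SR genes (left) and the 22 hnRNP genes (right) in the LPA library (filled orange) and the control library (open grey), ordered by mean FPKM, with a line joining the 2 values of a gene. The 2 points of most genes overlap, and the longest lines belong to HNRNPLL, HNRNPAB and SRSF4.

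The 22 hnRNP genes that passed the filter summed to 3734 FPKM with LPA and 3770 FPKM in the control. Their log2 ratios were above 0 in 10 and below in 12, with a median of -0.03. HNRNPC, at 362 FPKM with LPA and 475 FPKM in the control, differed by more than the summed level. Its LPA value is uncertain, as given below. HNRNPA1, whose product binds exonic silencers and competes with SRSF1, accounted for the most of this sum, with 1110 FPKM with LPA and 1119 FPKM in the control. HNRNPA1 has close processed copies in the genome, so the number of fragments assigned to it is uncertain. HNRNPA2B1, a factor in splicing and RNA transport, had 488 FPKM with LPA and 460 FPKM in the control. HNRNPK, which binds C-rich RNA, had 249 FPKM with LPA and 260 FPKM in the control.

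HNRNPAB, an A/B-type protein that also binds DNA, had the highest ratio of either family. It had 162 FPKM with LPA and 116 FPKM in the control, a log2 ratio of 0.48 (chr5:178204507-178232822). Its isoform with the 141-base segment had 125 FPKM with LPA, with bounds of 85.9 to 165, and 85.3 FPKM in the control, with bounds of 57.7 to 113. These bounds overlap. Its locus is overlapped by that of PHYKPL, at 4.60 FPKM with LPA and 3.98 FPKM in the control.

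HNRNPD (AUF1), which binds AU-rich elements and controls the decay of mRNAs that carry them, had 119 FPKM with LPA and 92.2 FPKM in the control (log2 ratio 0.37, chr4:82353314-82373996). HNRNPDL, its neighbour and paralogue on chromosome 4, lay on the other side of 0, at 39.3 FPKM with LPA and 43.7 FPKM in the control (log2 ratio -0.15). HNRNPU, a nuclear scaffold protein, had 76.7 FPKM with LPA and 60.4 FPKM in the control (log2 ratio 0.34, chr1:244850300-244864525). Both HNRNPU isoforms were higher with LPA, NM_004501 at 53.0 FPKM against 43.3 FPKM in the control and NM_031844 at 23.7 FPKM against 17.1 FPKM in the control.

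HNRNPLL, known in T cells for repressing variable exons of CD45, had the lowest ratio. It stood at 10.9 FPKM with LPA and 16.4 FPKM in the control, a log2 ratio of -0.55 (chr2:38563186-38603036). The upper bound of its leading isoform NM_138394 was 11.7 FPKM with LPA, and the lower bound of that isoform in the control was 10.6 FPKM. The bounds therefore overlap. The ratio passed 1.5-fold when 0.1 in place of 1 was added to the FPKM, and when the leading isoform stood for the gene.

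HNRNPH2, a binder of G-runs, had 14.5 FPKM with LPA and 19.6 FPKM in the control (log2 ratio -0.41, chrX:101390890-101414140). The deposited table places it in a locus with RPL36A, at 1447 FPKM with LPA and 1751 FPKM in the control, and with a read-through of both at 31.9 FPKM with LPA and 33.3 FPKM in the control. The bounds of its leading isoform ran from 0 to 33.0 with LPA and from 0 to 44.0 in the control, so the split among these transcripts is uncertain. Its relative HNRNPH1 had 125 FPKM with LPA and 134 FPKM in the control, and HNRNPH3 had 50.8 FPKM with LPA and 55.0 FPKM in the control. HNRNPF, also a G-run binder, was on the higher side with 103 FPKM with LPA and 95.1 FPKM in the control.

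HNRNPC, which binds uridine tracts and keeps Alu-derived exons out of mRNA, had 362 FPKM with LPA and 475 FPKM in the control (log2 ratio -0.39, chr14:21209136-21269479). All 4 of its isoforms have the status FAIL in the LPA library, where their bounds are listed at 0, so its LPA value and isoform shares are uncertain. No other SR or hnRNP isoform among 112 has that status.

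The remaining hnRNP genes had log2 ratios of at most 0.21 in size. HNRNPM had 217 FPKM with LPA and 198 FPKM in the control. HNRNPL, which binds CA repeats, had 171 FPKM with LPA and 166 FPKM in the control. PTBP1, the polypyrimidine tract-binding protein that represses many alternative exons, had 125 FPKM with LPA and 135 FPKM in the control (log2 ratio -0.11). HNRNPA3 had 108 FPKM with LPA and 107 FPKM in the control, and HNRNPUL1 51.7 FPKM with LPA and 48.2 FPKM in the control. HNRNPA0, a binder of AU-rich RNA, had 98.5 FPKM with LPA and 110 FPKM in the control (log2 ratio -0.16). HNRNPR, a close relative of the RNA-binding protein SYNCRIP, had 30.0 FPKM with LPA and 34.7 FPKM in the control (log2 ratio -0.20). HNRNPUL2 had 17.7 FPKM with LPA and 18.4 FPKM in the control, in a locus that the table shares among it, BSCL2 and their read-through. The HNRNPA1 retrogene HNRNPA1L2 had 4.77 FPKM with LPA and 4.01 FPKM in the control, and its counting interval ran from -0.11 to 0.52 on the log2 scale.

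**Figure D3:**
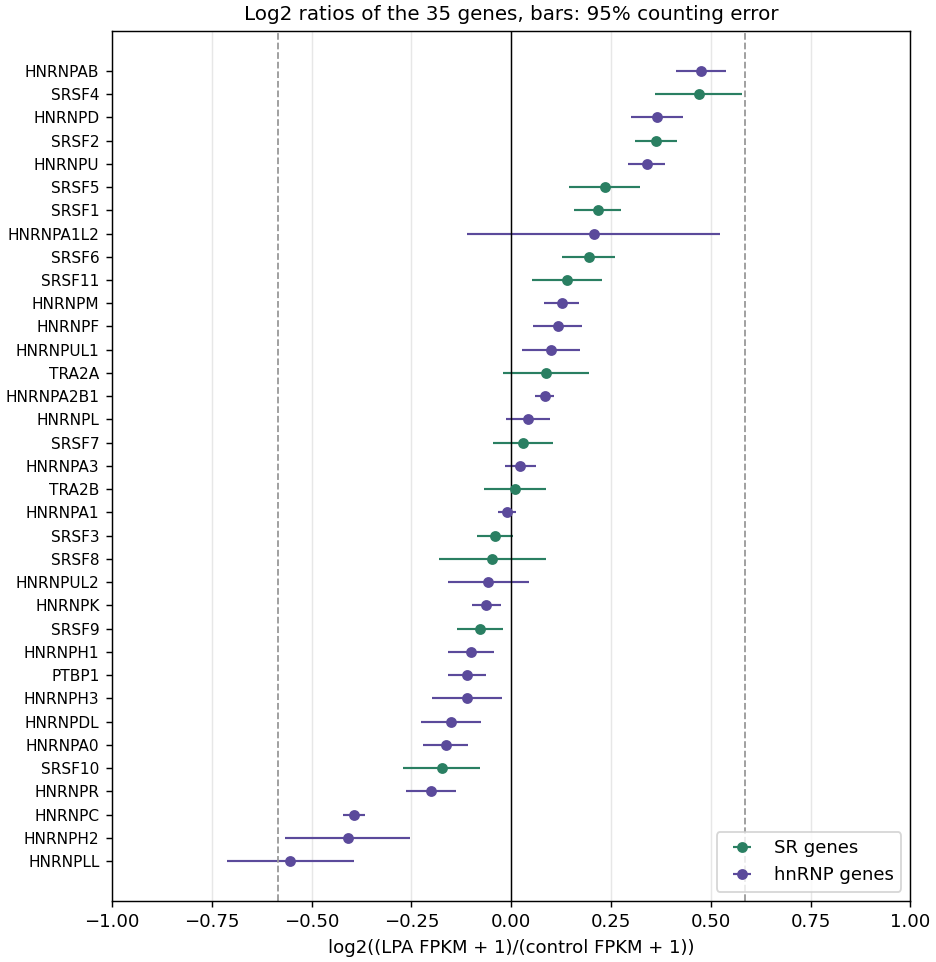
Log2 ratio of LPA over control for each of the 35 genes, ordered from high (top) to low, with SR genes in green and hnRNP genes in purple. Bars are 95% intervals for counting error alone, dashed lines mark 1.5-fold, and the points run from 0.48 for HNRNPAB to -0.55 for HNRNPLL.

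Single isoforms were compared next. The 39 genes have 112 isoforms in the table, 8 of them with the class code j (a splice pattern that differs from the nearest RefSeq transcript) and 7 nearest to a noncoding RefSeq transcript. Of the 79 with status OK and a mean of at least 1 FPKM, 3 were at least 2-fold apart and 0 had bounds that did not overlap. Over all 16999 such isoforms, 8.05% were at least 2-fold apart, 4.61% had separate bounds and 3.99% met both conditions. In none of the 34 genes whose leading isoform has status OK did that isoform's bounds separate. The matching share over the leading isoforms of all genes was not computed, and the 4.61% covers minor isoforms too. The 3 isoforms were all minor. HNRNPD NM_001003810, which lacks exons 2 and 7, had 11.8 FPKM with LPA (bounds 1.12 to 22.4) and 1.34 FPKM in the control (bounds 0 to 4.50). HNRNPUL1 NM_001301016 had 0.976 FPKM with LPA and 3.18 FPKM in the control. A TRA2A isoform of class j had 0.0192 FPKM with LPA and 2.32 FPKM in the control.

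Isoform composition was summarised as the part of a gene's FPKM that would have to move between isoforms to turn the share pattern of either library into that of the other, in percentage points. This measure was added after values had been seen. The median shift was 3.51 points over the 30 SR and hnRNP genes with at least 2 isoforms, 7.94 points over all 6666 such genes and 4.90 points over those with a mean of at least 10 FPKM. A shift of at least 10 points was found in 8 of the 30 genes (26.7%), against 44.8% of all such genes and 31.6% of the 3267 with a mean of at least 10 FPKM. It was under 5 points in 19 of the 30 (63.3%), against 39.9% of all such genes and 50.7% of those with a mean of at least 10 FPKM. The 8 were HNRNPC (20.5 points, status FAIL), HNRNPR (18.9), HNRNPD (13.5), HNRNPA1L2 (12.7), HNRNPF (12.2), TRA2A (11.1), HNRNPK (11.1) and SRSF10 (10.8). The HNRNPA1L2 shift rests on low values, NM_001011724 at 0 FPKM with LPA and 0.509 FPKM in the control, with overlapping bounds.

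In HNRNPR the isoform NM_001102397 held 61.6% of the FPKM with LPA and 48.5% in the control, and NM_005826 held 25.0% with LPA and 36.5% in the control. HNRNPD carried its shift in the isoforms that combine exons 2 and 7. The isoform with both exons, NM_031370, held 34.9% with LPA and 29.8% in the control, and the isoform with exon 7 alone, NM_031369, held 8.39% with LPA and 15.7% in the control. The isoform with neither, NM_001003810, held 9.88% with LPA and 1.45% in the control. The isoform with exon 2 alone, NM_002138, led in both libraries with 46.9% under LPA and 53.0% in the control. TRA2A concentrated on its leading isoform NM_013293, at 93.1% with LPA and 85.0% in the control. In SRSF10 the minor isoform NM_001191005 had a share of 14.4% with LPA and 4.95% in the control. These shares rest on low values, 2.22 FPKM with LPA and 0.868 FPKM in the control. The deposited bounds of each isoform named in this paragraph overlap between the libraries.

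Another isoform led in the LPA library than in the control in 3 of the 30 genes (10.0%), against 15.8% of all such genes and 9.43% of those with a mean of at least 10 FPKM. These were HNRNPC, HNRNPF and HNRNPK. In HNRNPF the leading isoform was NM_001098204 with LPA (46.8%, against 38.7% in the control) and NM_001098206 in the control (30.8% with LPA, against 39.8% in the control). In the control they were nearly level, with NM_001098206 at 37.9 FPKM and NM_001098204 at 36.9 FPKM. The bounds of each overlap between the libraries. In HNRNPK it was a class j isoform with LPA, at 81.0 FPKM against 55.7 FPKM in the control, and NM_002140 in the control, at 67.5 FPKM with LPA and 74.1 FPKM in the control. All 4 HNRNPK isoforms have bounds that overlap between the libraries.

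**Figure D4:**
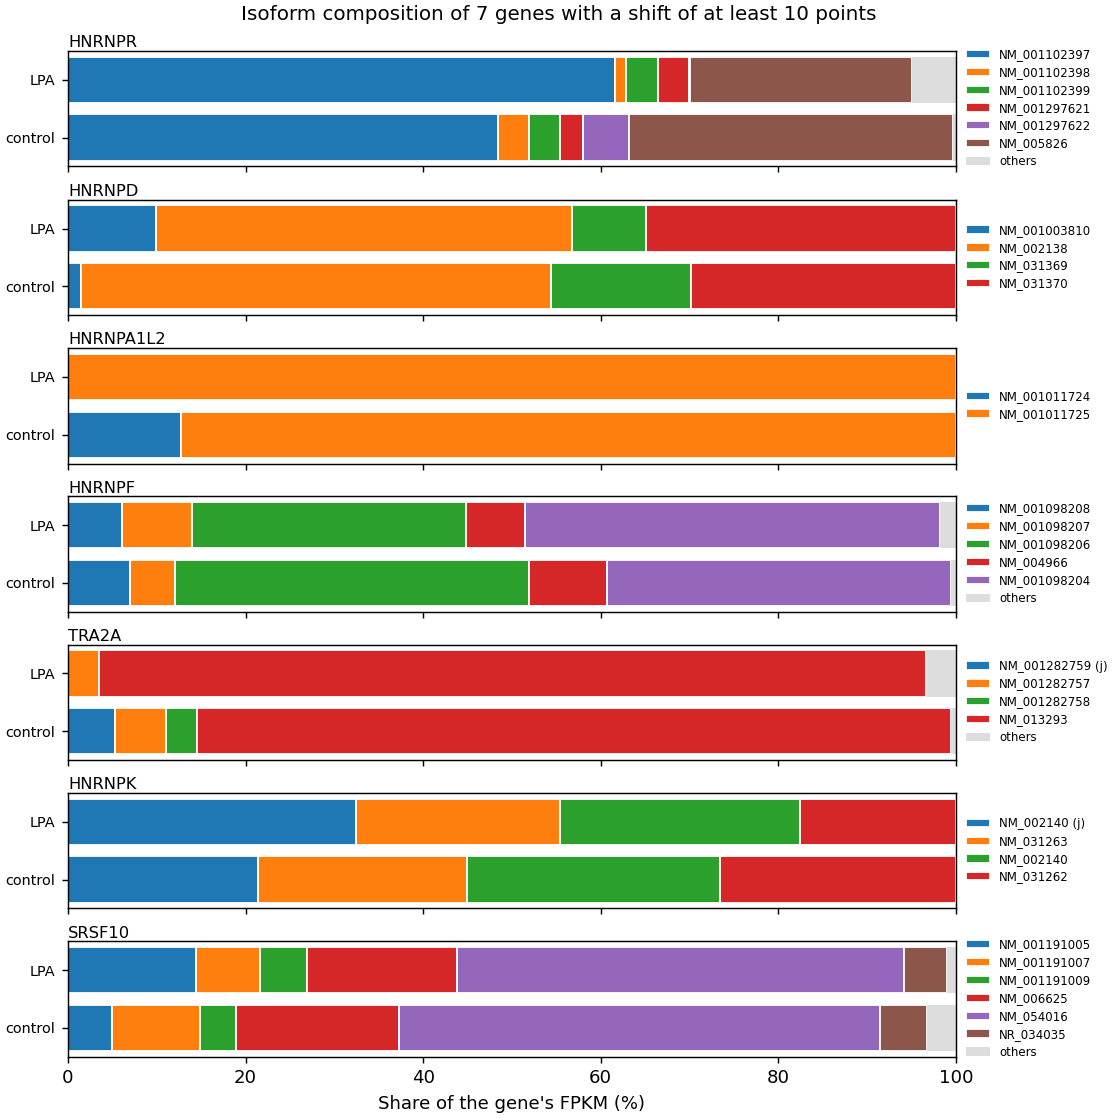
Share of each gene's FPKM (percent) on its isoforms in the LPA library (upper bar) and the control library (lower bar) for the 7 genes with a composition shift of at least 10 points and status OK. Colours are reused between genes, (j) marks class j, grey is the sum of isoforms under 3% in both libraries, and the widest change of a single share is that of NM_001102397 in HNRNPR.

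The isoforms that RefSeq lists as noncoding include those with the stop-carrying segments of SRSF3 and SRSF6. Of the 7 genes with both kinds of isoform, 0 differed by at least 5 points, against 39.0% of all 1273 such genes and 26.5% of the 676 with a mean of at least 10 FPKM. The genes are few and some shares are small, as in SRSF1 with 1.00% with LPA and 1.74% in the control. This 0 is therefore not read as a trait of these genes. The share was lower with LPA in 6 and higher in 1. No count of directions over all such genes was made, so this split is not read as a result. In SRSF6 it was 6.60% with LPA (4.24 FPKM) and 8.99% in the control (5.04 FPKM). SRSF3 was on the other side, with 8.82% with LPA (12.8 FPKM) and 6.47% in the control (9.68 FPKM). For the SRSF3 isoform that holds the 456-base segment, the range of shares that the deposited bounds allow was 0.938% to 20.3% with LPA and 0% to 16.2% in the control. These ranges overlap widely.

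SRSF2 had 9.33% of its FPKM on the noncoding isoform with LPA and 10.8% in the control, and SRSF1 had 1.00% with LPA and 1.74% in the control. For SRSF10 the share was 4.89% with LPA and 5.23% in the control. GENCODE types the noncoding isoforms of SRSF1, SRSF2, SRSF3, SRSF6 and HNRNPDL as nonsense-mediated decay targets, that of SRSF10 as a processed transcript and that of SRSF8 as protein coding. The noncoding isoform of HNRNPDL made up 42.8% of that gene's FPKM with LPA and 44.0% in the control, the highest share of the 7. In SRSF8 the share was 18.9% with LPA and 22.5% in the control. The table lists no noncoding isoform for TRA2A or TRA2B.

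Coding segments that separate hnRNP isoforms were compared by their inclusion. For 9 segments in 8 genes, all multiples of 3 bases and all within the coding sequence, the share of FPKM on isoforms with the segment was computed. In each of the 8 segments with status OK it differed by less than 5 points, and the ranges that the bounds allow overlapped. No share over all genes was computed for this measure, and the isoforms of HNRNPR, HNRNPK, HNRNPLL and HNRNPL, with composition shifts of 18.9, 11.1, 9.86 and 7.24 points, are not among these segments. The 12 codons of the HNRNPA2B1 segment, which make the B1 form, were included at 14.8% with LPA and 13.9% in the control. Exon 2 of HNRNPD, 19 codons long, was included at 81.7% with LPA and 82.8% in the control, and exon 7, of 49 codons, at 43.2% with LPA and 45.6% in the control. The inclusion of each HNRNPD exon therefore differed by less than 5 points, where the composition of its isoforms shifted by 13.5 points.

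PTBP1 included the 78-base segment between its RNA recognition motifs, whole or in part, at 77.3% with LPA and 76.2% in the control. The part form NM_031990 had 1.98 FPKM with LPA and 3.44 FPKM in the control. In HNRNPAB the 47-codon segment was included at 77.3% with LPA and 73.3% in the control, the widest difference of the 8. HNRNPH3 included its segment at 77.8% with LPA and 74.3% in the control, HNRNPU at 30.9% with LPA and 28.3% in the control, and HNRNPM at 36.5% with LPA and 36.9% in the control. In HNRNPC, with status FAIL, the 13 codons of the C2 form had a share of 35.3% with LPA and 36.6% in the control.

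**Figure D5:**
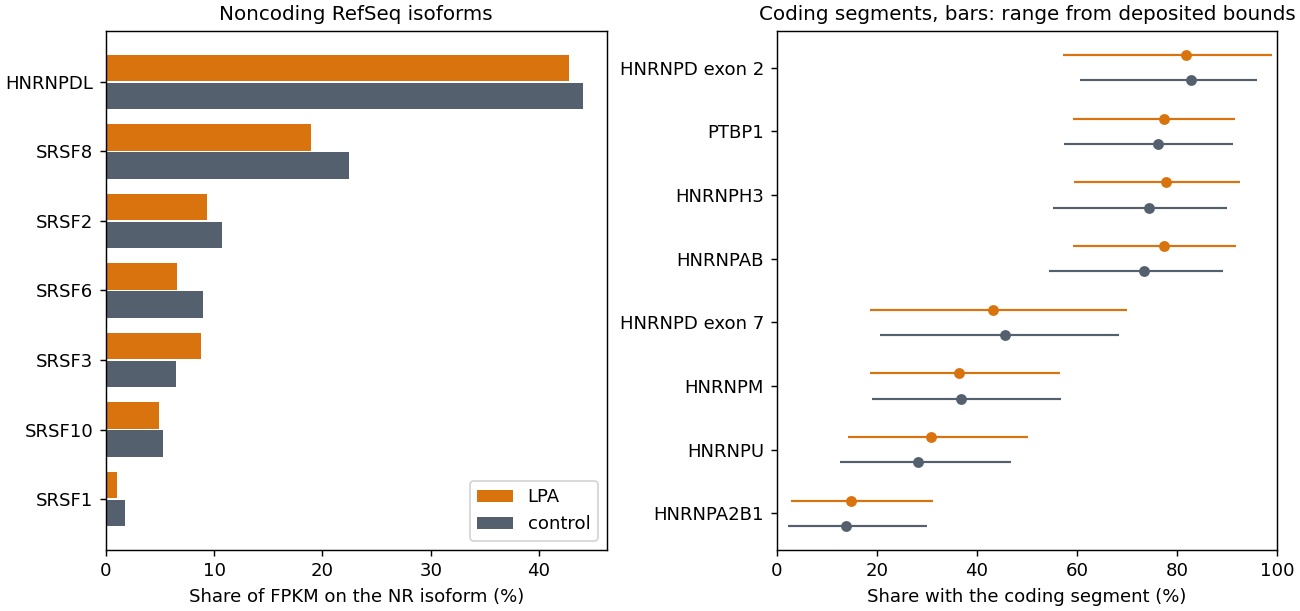
Left, share of a gene's FPKM on its noncoding RefSeq isoform (percent) in the LPA (orange) and control (grey) library for 7 genes. Right, share of FPKM on isoforms with a coding segment for the 8 segments with status OK, where bars are the range that the deposited bounds allow, and the bars of both libraries overlap for each segment.

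The genes that act on these families or beside them were followed in 7 lists of 141 genes, of which 138 had a mean of at least 1 FPKM. At 1.5-fold 1 was higher and 1 lower, against the 1.45% and 1.54% of all genes given above. Among 13 kinases, phosphatases and import factors of SR proteins, 9 were above 0 and 4 below, with a median log2 ratio of 0.06. TNPO3, the importin that carries SR proteins into the nucleus, was highest at 14.9 FPKM with LPA and 10.6 FPKM in the control. CLK4, which phosphorylates them there, was lowest at 3.51 FPKM with LPA and 5.14 FPKM in the control.

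SR-related nuclear proteins, which carry the arginine and serine repeats but are not classical SR proteins, had a median of 0.12, with 13 of 18 above 0. LUC7L, a U1 snRNP-associated protein, was the gene past 1.5-fold on the higher side, at 27.1 FPKM with LPA and 16.8 FPKM in the control (log2 ratio 0.66). SCAF11 was lowest at 7.43 FPKM with LPA and 9.27 FPKM in the control. Of 37 other splicing regulators 24 were above 0, with a median of 0.05. CELF1, a GU-rich element binder, was highest at 23.7 FPKM with LPA and 18.1 FPKM in the control. TIA1, which binds U-rich sequences next to 5′ splice sites, was the gene past 1.5-fold on the lower side, at 9.41 FPKM with LPA and 14.7 FPKM in the control (log2 ratio -0.60).

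Core spliceosome genes lay on both sides of 0. Of 19 U1 and U2 snRNP and 3′ splice site factors 13 were above 0 with a median of 0.14, from SNRPA (113 FPKM with LPA, 84.4 FPKM in the control) to SNRPB2 (68.7 FPKM with LPA, 85.1 FPKM in the control). Of 20 tri-snRNP and Prp19 complex genes 14 were above 0 with a median of 0.17, from SART1 (24.3 FPKM with LPA, 18.1 FPKM in the control) to CDC5L (10.5 FPKM with LPA, 13.4 FPKM in the control). Sm and LSm genes had 6 of 14 above 0 and a median of -0.05, from SNRPD3 (50.1 FPKM with LPA, 44.1 FPKM in the control) to LSM8 (3.95 FPKM with LPA, 5.24 FPKM in the control). The nonsense-mediated decay factors, which degrade the stop-carrying isoforms, had 10 of 17 above 0 and a median of 0.07, from the kinase SMG1 (4.23 FPKM with LPA, 2.96 FPKM in the control) to MAGOHB (6.43 FPKM with LPA, 8.28 FPKM in the control).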

How the data were processed

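Poly-A RNA of HCT-116 cells was made into TruSeq V2 libraries, per the labels' protocols. TopHat2 2.0.12, Cufflinks, Cuffdiff 2.2.0, bcl2fastq 2.16.0.10 and the build hg38 were used, per the submitters' processing notes, with settings and scaling not given in the sources used here. FPKM with lower and upper bounds and a status per isoform were deposited by the authors in the layout of a Cuffdiff table, per the file headers. All sample columns were used (0 left over).

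Isoform FPKM were summed per symbol, and genes with a mean of at least 1 FPKM entered the log2 ratios with 1 added. With 1 library per condition no test was run. Isoforms with status HIDATA in the LPA library were treated as missing, and those with FAIL kept as listed. Depth was estimated from the worth of 1 fragment (FPKM times length) in genes with 1 isoform over 2000 nt. Gene level ratios were tested on simulated data, and the leading isoform call on HNRNPAB with its simulated isoform values swapped. Isoform share values were not tested in this way.

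Genes were named by these rules: all members in values or ranges; isoforms of the 8 largest log2 ratios, the 8 largest differences in noncoding share (7 exist) and the 5 highest genes; of each other list the highest, the lowest and those past 1.5-fold. Genes with composition shifts were named after their values were seen. The members and lists were chosen with earlier results of these data known. Coordinates are 1-based hg38 loci of the deposited table, which can extend past the gene. Segments come from GENCODE v29. A further segment is not reported here. Of the 35 genes, 9 are overlapped by another locus and 4 share theirs. Analyses used Python 3.11.15, pandas 2.3.3, NumPy 2.4.6 and Matplotlib 3.10.9.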

Additional observations from a re-analysis of the deposited data

How the results depend on the processing

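The count of SR and hnRNP genes past 1.5-fold was 0 as reported, 1 with 0.1 added to the FPKM (HNRNPLL) and 2 when the leading isoform stood for the gene (HNRNPC and HNRNPLL). HNRNPC has status FAIL in the LPA library. The other alternatives were an added 5, no filter or a mean of at least 5 FPKM, centring on the median of all genes, class = isoforms alone, HIDATA isoforms at their listed value, isoforms of 300 nt or longer and, added after seeing the data, FAIL isoforms as missing. Over these and the 2 above, 57 values for the main comparisons stayed within 1.5 times the reported count or 0.1 of the reported median, and 2 moved further. This tally does not measure stability. No SR or hnRNP isoform has status HIDATA or is shorter than 300 nt, so those alternatives could not move a value. The limit of 0.1 is also wider than the size of each reported median. The count of genes with another leading isoform was 3 as reported and 2 with class = isoforms alone or with FAIL isoforms as missing. The SR median of 0.09 stayed above 0 in each (0.06 to 0.16), and the hnRNP median of -0.03 became 0.01 when the leading isoform stood for the gene and 0 without the filter. Of the 8 genes with the largest ratios no direction turned, but only the use of the leading isoform could have turned one. With it HNRNPD went as low as 0.19 and HNRNPC to -0.80. No paired analysis was possible because the conditions share 1 replicate number and hold 1 library each, and no library could be left out. By gene, the counting standard error was highest for HNRNPA1L2, at 0.16.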

Other observations

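Rows that resemble these families but fall outside the naming rule were measured as well. HNRNPU-AS1, a noncoding gene named for its position antisense to HNRNPU, had 9.44 FPKM with LPA and 12.5 FPKM in the control (log2 ratio -0.37), where HNRNPU itself had a log2 ratio of 0.34. The library kit does not mark strand, but no other deposited locus overlaps that of HNRNPU. The pseudogene HNRNPA1P10 had 10.0 FPKM with LPA and 8.48 FPKM in the control, more than the HNRNPA1L2 gene in both libraries. HNRNPA1P33 had 0.336 FPKM with LPA and was listed at 0 in the control. The PTBP1 paralogues differed little: PTBP2, known mostly from neurons, had 3.14 FPKM with LPA and 3.46 FPKM in the control, and PTBP3 had 16.0 FPKM with LPA and 14.2 FPKM in the control. The read-through HNRNPUL2-BSCL2 had 15.2 FPKM with LPA and 12.6 FPKM in the control. RBMX, an hnRNP G gene outside the symbol rule, had 88.0 FPKM with LPA and 117 FPKM in the control (log2 ratio -0.41), and SYNCRIP, the hnRNP Q gene, had 56.2 FPKM with LPA and 64.9 FPKM in the control. These rows were chosen after their values were seen.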
